A study of Mus musculus with 6 samples.

Results

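Serine synthesis and folate one-carbon metabolism were followed through 9 genes, Phgdh, Psat1, Psph, Shmt1, Shmt2, Mthfd1, Mthfd1l, Mthfd2 and Aldh1l2. All 9 were found among the 17254 genes listed in any library, and all 9 were among the 11717 genes tested, those with a mean of at least 1 FPKM. FPKM is a level scaled to the length of the transcript and to the total of the library, which allows different genes to be set side by side. RNA-seq was performed on cultured mouse neural stem/progenitor cells (NSPCs) after 48 h, with 2 mock-treated control libraries, 2 libraries treated with 5 µM paraquat (PQ) and 2 treated with 5 mM N-acetylcysteine (NAC). PQ cycles with oxygen in the cell and yields superoxide, whereas NAC is a thiol antioxidant, so the comparison asked how the cells responded to a pro-oxidant and to an anti-oxidant. The study used a single immortalized culture derived from neonatal Ink/Arf-/- mice, a mixed population grown in N2 media with EGF and bFGF, and this deletion was therefore shared by every group. The labels give the genotype, spelled Ink/Ark knockout, and the strain C57BL/6 for control 1 and PQ 1 only.

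The labels also split the libraries by protocol. Control 1 and PQ 1 carry a NucleoSpin extraction and Illumina sequencing, whereas control 2, PQ 2, NAC 1 and NAC 2 carry a TRIZOL extraction and BGISEQ-500 sequencing. Both NAC libraries thus share a protocol with control 2 but not with control 1. Over genes, which do not count as replicates, Pearson's r of log2(FPKM + 1) was 0.987 for the control pair, 0.990 for the PQ pair and 0.991 for the NAC pair. Expected counts, given always in the order of replicate 1 and 2, summed to 9849392 and 10040827 in control, 10388731 and 9680436 in PQ and 10698241 and 9907726 in NAC. None of the 9 genes fell under 192 counts in any library. The study's reporting summary says that the sequencing was replicated, but neither it nor the labels say whether the 2 libraries of a group came from separate cultures, so p-values measure only the spread between these libraries, which may be technical. Cdkn2a, the Ink/Arf gene, still had 137 and 162 counts in control 1 and 2, 120 and 130 in PQ 1 and 2, and 130 and 131 in NAC 1 and 2. The values are per gene and do not separate exons, so these counts check nothing about the deletion.

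Serine is made from the glycolytic intermediate 3-phosphoglycerate by Phgdh, Psat1 and Psph. Serine then passes a carbon to tetrahydrofolate, through Shmt2 in mitochondria or Shmt1 in the cytosol, and the carbon units serve the synthesis of purines and thymidylate, methylation and the reduction of NADP+. In mitochondria Mthfd2 and Mthfd1l carry the unit to formate, which Mthfd1 takes up again in the cytosol, while Aldh1l2 oxidizes it to carbon dioxide. Proliferating cells, among them neural progenitors, draw heavily on this pathway, and Atf4 is a known transcriptional activator of many of its genes.

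Most of these enzymes were lower in both treatments. In PQ against control, 7 of the 9 genes fell and 0 rose, where 19.2% of all genes tested changed, 9.45% lower and 9.76% higher (edgeR's quasi-likelihood test, adjusted p under 0.05). In NAC against control, 7 fell and 1, Shmt1, rose, where 18.7% of all genes changed, 9.64% lower and 9.01% higher. Shmt1 was among the genes that fell in PQ and Mthfd1l among those that fell in NAC, and both comparisons share their control libraries. The median log2 fold change of the 9 genes was -0.81 in PQ and -0.85 in NAC, beside -0.001 and -0.002 over all genes tested. Both PQ libraries lay below both control libraries in CPM, counts scaled to the TMM-adjusted total of the tested genes in a library, for all 9 genes, as they did for 28.7% of all genes. Both NAC libraries lay below the controls for 7 genes and above them for 2, Shmt1 and Mthfd1, as was so for 28.2% and 28.4% of all genes.

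**Figure D1:**
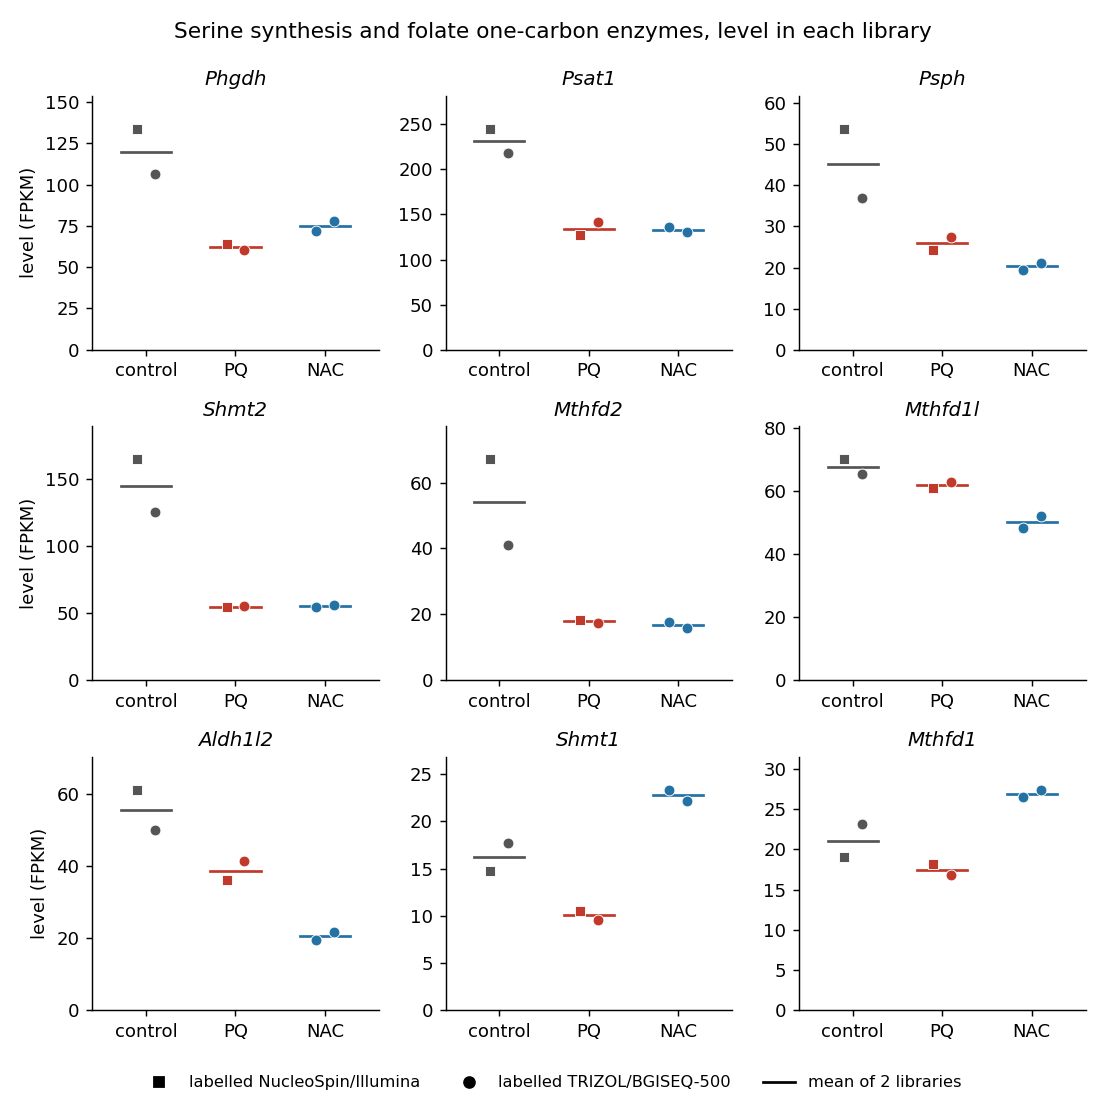
Level in FPKM of each of the 9 enzymes in the 6 libraries, with squares for the NucleoSpin and Illumina libraries, circles for the TRIZOL and BGISEQ-500 libraries and a line at the mean of the 2 libraries of a group. Shmt2 and Mthfd2 sat far below the controls in both treatments, whereas Shmt1 and Mthfd1 lay below the controls in PQ and above them in NAC.

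Serine synthesis came first in the order of the pathway. Phgdh, the dehydrogenase that commits 3-phosphoglycerate to serine, stood at 134 and 106 FPKM in control, 63.9 and 60.2 under PQ and 71.8 and 77.8 under NAC. The groups did not overlap, and the PQ libraries were the lowest. Phgdh fell by 0.98 ± 0.11 (SE) on the log2 scale in PQ (adjusted p = 8.1e-06) and by 0.73 ± 0.11 in NAC (adjusted p = 8.8e-05). Psat1, the aminotransferase of the next step and the most abundant of the 9 in every library, stood at 245 and 218 FPKM in control libraries, 127 and 141 with PQ and 136 and 130.4 with NAC. The PQ and NAC libraries overlapped and lay apart from the controls. Psat1 fell by 0.81 ± 0.10 in PQ (adjusted p = 1.5e-05) and by 0.85 ± 0.10 in NAC (adjusted p = 5.3e-06). Psph, the phosphatase that releases serine, stood at 53.7 and 36.9 FPKM in control 1 and 2, 24.3 and 27.5 in PQ 1 and 2, and 19.5 and 21.1 in NAC 1 and 2. The NAC libraries were the lowest here, and the control libraries differed from each other 1.47-fold in CPM. Psph fell by 0.83 ± 0.15 in PQ (adjusted p = 5.6e-04) and by 1.21 ± 0.15 in NAC (adjusted p = 1.1e-05). Within the NucleoSpin libraries the log2 difference of PQ from control was -1.11 for Phgdh, -0.99 for Psat1 and -1.19 for Psph. Within the TRIZOL libraries it was -0.83, -0.63 and -0.43, so the sign was shared and the Psph value was the one that shrank most.

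As a description, the promoter windows of RefSeq (GRCm38.p6), 250 bases before to 50 bases after a start, were searched on both strands for 5 runs of letters. TGATGNAA, a form of the element bound by Atf4 with C/EBP proteins, was in 3.97% of all 32851 windows. TGACGT, a core of the cyclic AMP response element, was in 7.51%, CCAAT, the box bound by NF-Y, in 37.4%, GGGCGG, a GC box, in 35.7% and CACGTG, an E-box, in 7.15%. A window was present for 8 of the 9 genes, Psat1 with 2 windows, and absent for Aldh1l2. CCAAT or its complement was found in windows of 6 genes, Phgdh, Psat1, Psph, Shmt1, Mthfd1 and Mthfd2, TGACGT in those of 2, Psph and Mthfd1l, and GGGCGG in those of 5, Psat1, Psph, Shmt1, Mthfd1 and Mthfd1l. TGATGNAA and CACGTG were in none of the 9 windows, which says only that these letters are not there. Such matches are descriptions of the sequence and do not show that a factor was bound. The Psat1 window on the minus strand at chr19:15925010-15925309 is shown because this gene had the highest level, with its 3 CCAAT matches in capitals.
Psat1: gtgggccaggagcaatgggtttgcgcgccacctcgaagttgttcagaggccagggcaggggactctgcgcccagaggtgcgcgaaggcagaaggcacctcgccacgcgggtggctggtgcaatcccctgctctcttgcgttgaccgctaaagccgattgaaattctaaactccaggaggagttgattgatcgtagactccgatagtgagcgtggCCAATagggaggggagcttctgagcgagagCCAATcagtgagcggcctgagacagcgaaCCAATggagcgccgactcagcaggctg

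The mitochondrial folate enzymes held the largest falls. Shmt2, the mitochondrial serine hydroxymethyltransferase, stood at 165 and 125 FPKM in control, 54.3 and 55.1 under PQ and 54.3 and 56.1 under NAC. All 4 treated libraries lay within 2 FPKM of each other, less than the gap between the controls. Shmt2 was 2.70-fold lower in PQ (log2 fold change -1.43 ± 0.12, adjusted p = 3.3e-07) and 2.71-fold lower in NAC (-1.44 ± 0.12, adjusted p = 9.5e-08). Mthfd2, the mitochondrial methylenetetrahydrofolate dehydrogenase and cyclohydrolase, stood at 67.0 and 41.0 FPKM in control libraries, 18.4 and 17.2 with PQ and 17.6 and 15.8 with NAC. The treated groups overlapped in FPKM, and control 1 was 1.65-fold above control 2 in CPM. Mthfd2 was 3.09-fold lower in PQ (log2 fold change -1.63 ± 0.17, adjusted p = 3.1e-06) and 3.34-fold lower in NAC (-1.74 ± 0.17, adjusted p = 6.2e-07), the largest change of the 9 in both comparisons. Against control 2 alone, the library that shares the TRIZOL label, the log2 difference was -1.25 in PQ 2 and -1.34 in the mean of the NAC libraries for Mthfd2, and -1.19 and -1.22 for Shmt2. Against control 1, PQ 1 differed by -1.92 for Mthfd2 and by -1.65 for Shmt2. The windows of these 2 genes, both on the minus strand, are shown to set them side by side, Mthfd2 at chr6:83317555-83317854 with 3 CCAAT matches in capitals and Shmt2 at chr10:127522395-127522694 with none of the 5 runs.
Mthfd2: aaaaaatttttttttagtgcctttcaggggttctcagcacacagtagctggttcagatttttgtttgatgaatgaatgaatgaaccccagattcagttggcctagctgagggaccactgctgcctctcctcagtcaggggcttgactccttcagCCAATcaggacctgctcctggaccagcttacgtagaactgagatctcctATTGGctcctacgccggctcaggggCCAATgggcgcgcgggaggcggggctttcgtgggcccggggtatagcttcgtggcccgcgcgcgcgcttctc
Shmt2: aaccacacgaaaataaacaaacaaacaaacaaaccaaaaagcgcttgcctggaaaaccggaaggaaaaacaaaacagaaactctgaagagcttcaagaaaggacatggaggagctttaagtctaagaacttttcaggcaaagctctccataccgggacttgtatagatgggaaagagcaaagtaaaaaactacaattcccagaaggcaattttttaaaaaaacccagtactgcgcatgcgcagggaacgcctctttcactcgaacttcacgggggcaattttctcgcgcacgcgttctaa

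The other mitochondrial enzymes separated the treatments. Aldh1l2, the mitochondrial formyltetrahydrofolate dehydrogenase, stood at 61.2 and 50.1 FPKM in control 1 and 2, 36.1 and 41.4 in PQ 1 and 2, and 19.6 and 21.7 in NAC 1 and 2. None of the groups overlapped, and the NAC libraries were the lowest. Aldh1l2 fell by 1.48 ± 0.11 on the log2 scale in NAC (adjusted p = 6.6e-08) and by 0.55 ± 0.11 in PQ (adjusted p = 0.0017). The PQ call rested on PQ 1, for without this library the log2 fold change was -0.44 with an adjusted p of 0.059. Within the TRIZOL libraries PQ 2 differed from control 2 by -0.28 and the NAC libraries by -1.32. Mthfd1l, the mitochondrial formate-releasing synthetase, stood at 70.1 and 65.5 FPKM in control, 61.1 and 62.8 under PQ and 48.3 and 52.1 under NAC. Its values in PQ were just under the controls, while those in NAC stood further below. Mthfd1l fell by 0.48 ± 0.09 in NAC (adjusted p = 0.0011), and its log2 fold change in PQ was -0.16 ± 0.09 (adjusted p = 0.27).

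Of the cytosolic enzymes Shmt1 passed the test in both treatments, with opposite signs, and Mthfd1 in neither. Shmt1, the cytosolic serine hydroxymethyltransferase, stood at 14.8 and 17.8 FPKM in control libraries, 10.6 and 9.58 with PQ and 23.3 and 22.1 with NAC. The NAC libraries were thus the highest and the PQ libraries the lowest, with no overlap. Shmt1 fell by 0.72 ± 0.13 in PQ (adjusted p = 7.6e-04) and rose in NAC by a log2 fold change of 0.44 ± 0.12 (adjusted p = 0.015). The rise was the least stable call of the 9 genes. Its adjusted p was 0.13 without control 1 (log2 fold change 0.32), 0.13 without NAC 1 (0.39), 0.051 without NAC 2 (0.48) and 0.072 with the labelled protocol as a block (0.40), and over all 13 alternatives it ranged from 0.005 to 0.13. Mthfd1, the cytosolic enzyme that joins formate to tetrahydrofolate and interconverts the folate forms, stood at 19.0 and 23.2 FPKM in control 1 and 2, 18.2 and 16.8 in PQ 1 and 2, and 26.4 and 27.4 in NAC 1 and 2. Its order over the groups was that of Shmt1, with differences of smaller size. The log2 fold change of Mthfd1 was -0.30 ± 0.11 in PQ (adjusted p = 0.064) and 0.31 ± 0.11 in NAC (adjusted p = 0.052), neither past the threshold. Without control 1 the PQ value became -0.43 (adjusted p = 0.013) and the NAC value 0.18 (adjusted p = 0.36), and without control 2 they became -0.15 (adjusted p = 0.42) and 0.45 (adjusted p = 0.008), which were also the ends of the range over all 13 alternatives. The window of Shmt1, on the minus strand at chr11:60811216-60811515, is given as that of the gene with opposite changes, with its CCAAT match on the other strand in capitals.
Shmt1: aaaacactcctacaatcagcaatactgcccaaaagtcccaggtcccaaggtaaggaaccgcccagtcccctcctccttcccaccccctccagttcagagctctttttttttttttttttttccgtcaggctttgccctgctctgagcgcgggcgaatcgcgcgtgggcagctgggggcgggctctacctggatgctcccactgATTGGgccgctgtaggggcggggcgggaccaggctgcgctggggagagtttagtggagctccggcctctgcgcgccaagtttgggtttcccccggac

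PQ and NAC were also compared with each other. Of the 9 genes, 2 were lower in PQ than in NAC and 2 were higher, where 31.6% of all genes tested differed, 15.7% lower and 16.0% higher. The log2 fold change of PQ against NAC was -1.15 ± 0.13 for Shmt1 (adjusted p = 1.6e-06) and -0.60 ± 0.11 for Mthfd1 (adjusted p = 2.8e-04). It was 0.93 ± 0.11 for Aldh1l2 (adjusted p = 5.2e-06) and 0.32 ± 0.09 for Mthfd1l (adjusted p = 0.012). The 2 lower genes were the cytosolic pair and the 2 higher genes were mitochondrial, but these counts lay near the shares of all genes. The mitochondrial Shmt2 and Mthfd2 did not pass the threshold. Outside the 9, the cytosolic Aldh1l1 was higher in PQ than in NAC (1.66) and the mitochondrial carrier Slc25a32 lower (-0.55). No pattern by compartment is therefore read from these calls. For Mthfd1l the call was lost without PQ 2 (log2 fold change 0.29, adjusted p = 0.10), without NAC 1 (0.28, adjusted p = 0.11) and with the protocol block (0.31, adjusted p = 0.053), within a range of 0.0049 to 0.11 over the alternatives. The remaining 5 genes did not pass the threshold. Shmt2, Psat1 and Mthfd2 had values of 0.01 ± 0.12, 0.03 ± 0.10 and 0.11 ± 0.18, while Psph had 0.37 ± 0.15 (adjusted p = 0.073) and Phgdh -0.25 ± 0.11 (adjusted p = 0.097). Fitted to the 4 PQ and NAC libraries alone, Psph (adjusted p = 0.013) and Phgdh (adjusted p = 0.034) passed, as they did without either control library. Psph also passed with no filter on low values (adjusted p = 0.017) and Phgdh with the protocol block (log2 fold change -0.35, adjusted p = 0.037), and over all 13 alternatives the adjusted p ranged from 0.011 to 0.35 for Psph and from 0.034 to 0.34 for Phgdh. The median over the 9 genes was 0.03.

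**Figure D2:**
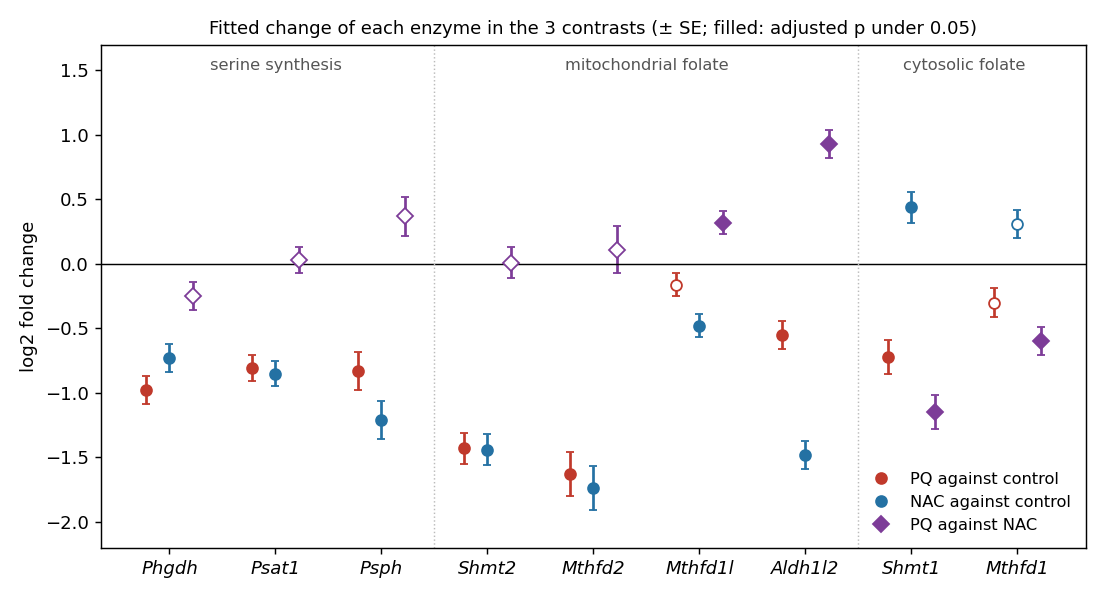
Log2 fold change with its standard error for each enzyme in PQ against control (red), NAC against control (blue) and PQ against NAC (purple diamonds), filled where the adjusted p was under 0.05. Shmt1 had a value of -0.72 in PQ and 0.44 in NAC, and Aldh1l2 had -0.55 and -1.48, whereas Shmt2 and Mthfd2 had nearly equal values in both treatments.

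The order of the levels changed with treatment. In the control libraries the mean FPKM ran from Psat1 (231 ± 19.0, SD, n = 2) over Shmt2 (145 ± 27.9), Phgdh (120.0 ± 19.4), Mthfd1l (67.8 ± 3.23), Aldh1l2 (55.6 ± 7.84), Mthfd2 (54.0 ± 18.4), Psph (45.3 ± 11.9) and Mthfd1 (21.1 ± 2.98) to Shmt1 (16.2 ± 2.11). Of neighbours in this order, Shmt2 and Phgdh overlapped between libraries, as did Aldh1l2 with Mthfd2 and Mthfd2 with Psph. Further apart in the order, Mthfd2 in control 1 (67.0) lay above Mthfd1l in control 2 (65.5). Likewise Psph in control 1 (53.7) lay above Aldh1l2 in control 2 (50.1). In PQ, Psat1 stayed first (134 ± 9.79), Phgdh (62.1 ± 2.65) and Mthfd1l (62.0 ± 1.21) overlapped in the next places, and Mthfd2 (17.8 ± 0.778) overlapped with Mthfd1 (17.5 ± 0.983) above Shmt1 (10.1 ± 0.686), the lowest. In NAC, Psat1 (133 ± 3.73) was again first and Mthfd2 (16.7 ± 1.22) was last. Aldh1l2 (20.6 ± 1.45) and Psph (20.3 ± 1.14) overlapped, and both cytosolic genes, Mthfd1 (26.9 ± 0.658) and Shmt1 (22.7 ± 0.827), stood above them.

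Ratios between compartments were computed from FPKM as a description, chosen after the values had been seen. Shmt2 exceeded Shmt1 by 11.2-fold and 7.05-fold in control, 5.14-fold and 5.76-fold under PQ and 2.33-fold and 2.53-fold under NAC. The ratio was thus lowest in NAC, where Shmt2 was low and Shmt1 high, and the 3 groups did not overlap. Mthfd2 over Mthfd1 was 3.53 and 1.77 in control libraries, 1.01 and 1.03 with PQ and 0.664 and 0.578 with NAC. Mthfd2 over Mthfd1l, both mitochondrial, was 0.956 and 0.625 in control 1 and 2, 0.300 and 0.275 in PQ 1 and 2, and 0.364 and 0.304 in NAC 1 and 2. In this ratio the treatments lay close together, apart from the controls. The summed FPKM of Phgdh, Psat1 and Psph was 432 and 361 in control, 215 and 229 under PQ and 227 and 229 under NAC. Shmt1 and Mthfd1 together had 33.8 and 41.0 in control libraries, 28.7 and 26.4 with PQ and 49.8 and 49.5 with NAC.

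**Figure D3:**
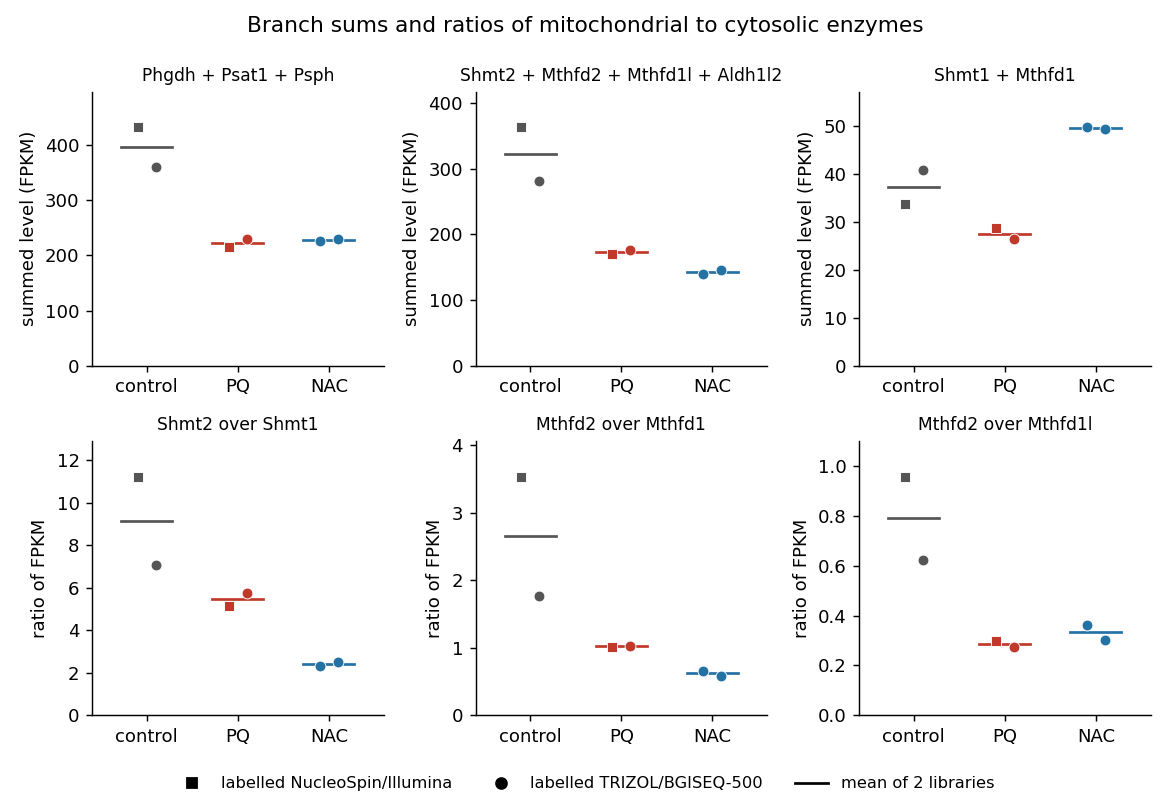
Summed FPKM of serine synthesis, mitochondrial folate and cytosolic folate enzymes (upper row) and FPKM ratios between enzymes (lower row) in the 6 libraries, with squares for NucleoSpin and Illumina, circles for TRIZOL and BGISEQ-500 and lines at group means. Shmt2 over Shmt1 lay at 11.2 and 7.05 in the control libraries and at 2.33 and 2.53 in the NAC libraries.

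The control libraries differed from each other in these genes. Control 1 was above control 2 in CPM for 7 of the genes, by a log2 difference of 0.12 for Mthfd1l up to 0.73 for Mthfd2, and below it for Shmt1 (-0.25) and Mthfd1 (-0.27). Atf4 showed the same order, 277 FPKM in control 1 and 190 in control 2 (log2 difference 0.56). These libraries differ in labelled protocol, and its part in the difference was not tested. The PQ libraries differ in protocol likewise, and the gap between them varied with the gene. They had 18.4 and 17.2 FPKM for Mthfd2 and 54.3 and 55.1 for Shmt2. For Psat1 they had 127 and 141 FPKM, beside 245 and 218 in control. For Aldh1l2 they had 36.1 and 41.4 FPKM, beside 61.2 and 50.1 in control.

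The 5 genes outside the lists examined with the highest Pearson's r with the mean of the 9 enzymes (centred log2 CPM over the 6 libraries, which fall into 3 groups) were Usp39 (r = 0.995), Zfp2 (0.988), Mia3 (0.987), Slc7a1 (0.986) and Rps14 (0.986). Slc7a1, a transporter of cationic amino acids, had 243 and 145 CPM in control 1 and 2, 65.9 and 65.8 in PQ 1 and 2, and 77.1 and 72.6 in NAC 1 and 2, a pattern close to that of Mthfd2. The direction of these 5 genes follows from their choice by r over the same libraries. The log2 fold change of Slc7a1 was -1.56 in PQ and -1.38 in NAC and that of Usp39 -0.41 and -0.41, while Zfp2 and Mia3 passed the test in neither. Among the enzymes themselves r with their own mean, of which each is a part, was 0.999 for Shmt2, 0.991 for Psat1 and 0.989 for Mthfd2. It was 0.769 for Aldh1l2 and 0.733 for Mthfd1l, and lowest for Shmt1 (0.124) and Mthfd1 (-0.051).

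Genes for the transport and further metabolism of serine and glycine were examined as a list of 13, of which 10 were tested. In PQ 5 fell and 1 rose, in NAC 3 fell and 0 rose, beside 19.2% and 18.7% of all genes changed, and the median log2 fold change was -0.43 and -0.21. Slc1a4, a transporter of serine and other neutral amino acids, had 40.3 and 32.1 FPKM in control, 14.2 and 16.1 under PQ and 20.2 and 23.4 under NAC. All 3 groups were separate, with PQ lowest. Slc1a4 fell by 1.28 in PQ (adjusted p = 1.4e-06) and by 0.78 in NAC (adjusted p = 1.0e-04), and it was lower in PQ than in NAC (log2 fold change -0.50, adjusted p = 0.0042). Slc6a9, a glycine transporter, fell by 0.79 in PQ and by 0.83 in NAC, and Slc1a5, a transporter of glutamine and other neutral amino acids, fell by 0.80 and by 0.71. Gcat, which takes part in glycine formation from threonine, fell by 0.57 in PQ. Sfxn1, a carrier of serine into mitochondria, had 51.6 and 52.1 FPKM in control libraries, 43.7 and 43.0 with PQ and 52.8 and 50.9 with NAC. It fell by 0.29 in PQ (adjusted p = 0.037), and its log2 fold change in NAC was -0.05 (adjusted p = 0.78). Sfxn3, of the same family, rose in PQ with a log2 fold change of 0.35 (adjusted p = 0.018) and was higher in PQ than in NAC (0.60, adjusted p = 1.4e-04).

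The list of other folate and glycine cleavage genes held 20, of which 17 were tested. In PQ 3 rose and 3 fell (median log2 fold change -0.06), beside 19.2% of all genes changed, and in NAC 0 rose and 1 fell (median 0.04), beside 18.7%. Aldh1l1, the cytosolic counterpart of Aldh1l2, had 1.11 and 1.34 FPKM in control 1 and 2, 3.28 and 2.36 in PQ 1 and 2, and 1.11 and 0.68 in NAC 1 and 2. PQ was highest and apart from the other groups, in contrast to Aldh1l2. Its log2 fold change was 1.17 in PQ (adjusted p = 0.0035), -0.49 in NAC (adjusted p = 0.31) and 1.66 in PQ against NAC (adjusted p = 1.2e-04). Slc19a1, the reduced folate carrier, fell by 0.98 in PQ, and Slc46a1, the proton-coupled folate transporter, rose with a log2 fold change of 0.61. Mthfd2l, a mitochondrial relative of Mthfd2, had 14.1 and 10.5 FPKM in control, 9.73 and 10.1 under PQ and 14.3 and 12.3 under NAC. Its log2 fold changes of -0.33 in PQ (adjusted p = 0.14) and 0.07 in NAC (adjusted p = 0.80) were far from those of Mthfd2 and not past the threshold. Slc25a32, the mitochondrial folate carrier, had log2 fold changes of -0.18 in PQ (adjusted p = 0.59) and 0.37 in NAC (adjusted p = 0.19), and was lower in PQ than in NAC (-0.55, adjusted p = 0.036).

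Purine and thymidylate synthesis, which consume the carbon units, differed between the treatments. Of 12 genes, all tested, 9 fell and 0 rose in PQ (median log2 fold change -0.35), whereas in NAC 0 fell and 1 rose (median -0.03). PQ against NAC had 9 lower and 0 higher (median -0.44). Of all genes 19.2% changed in PQ, 18.7% in NAC and 31.6% between PQ and NAC, and these shares also stand beside the counts of the proliferation list below. Tyms, which makes thymidylate, fell by 0.36 in PQ (adjusted p = 0.033) and had a log2 fold change of -0.02 in NAC (adjusted p = 0.93). Impdh2 fell by 0.53, Gart by 0.49 and Atic by 0.49 in PQ. The list of 20 proliferation genes behaved alike, with 20 lower in PQ (median -0.68), 0 lower and 1 higher in NAC (Mcm4, log2 fold change 0.49) and 20 lower in PQ against NAC (median -0.79). Its summed FPKM was 1555 and 1644 in control 1 and 2, 995 and 1034 in PQ 1 and 2, and 1819 and 1733 in NAC 1 and 2, with Pcna the most abundant, and Mki67 fell by 1.13 in PQ. In bulk samples fewer cells of a type and less RNA per cell cannot be told apart, and the part of proliferation in the values of the enzymes was not tested.

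Atf4 itself was lower in both treatments. It had 277 and 190 FPKM in control, 132 and 126 under PQ and 101 and 110 under NAC. The groups did not overlap, and NAC was lowest. Atf4 fell by 0.88 ± 0.13 in PQ (adjusted p = 1.3e-04) and by 1.19 ± 0.13 in NAC (adjusted p = 3.1e-06), and the log2 fold change of PQ against NAC was 0.31 ± 0.13 (adjusted p = 0.079). Of the 8 regulators listed, 7 were tested. In PQ 3 fell (Atf4, Ddit3 and Cebpg) and 1 rose (Cebpb), and in NAC the same 3 fell and 2 rose (Myc and Trp53), beside 19.2% and 18.7% of all genes changed. Myc, another activator of serine and folate enzymes, had 32.1 and 36.9 FPKM in control libraries, 34.9 and 32.7 with PQ and 57.2 and 59.4 with NAC. Its NAC libraries stood above all others, whereas PQ and control overlapped. Myc rose in NAC with a log2 fold change of 0.71 ± 0.10 (adjusted p = 4.1e-05), and its value in PQ was -0.06 ± 0.10 (adjusted p = 0.75).

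A list of 18 genes linked to Atf4 in textbooks, all tested, had 15 lower in PQ (median log2 fold change -0.69) and 17 lower in NAC (median -1.32), with 0 higher in either, where 9.45% and 9.64% of all genes were lower. PQ against NAC had 10 higher and 0 lower (median 0.54, from -0.45 to 1.40), where 16.0% of all genes were higher. Chac1, which degrades glutathione, had 34.0 and 20.4 FPKM in control 1 and 2, 5.02 and 4.54 in PQ 1 and 2, and 2.14 and 2.63 in NAC 1 and 2. It fell in PQ (log2 fold change -2.53, adjusted p = 5.1e-07) and in NAC (-3.56, adjusted p = 1.5e-08). Trib3, a pseudokinase, fell by 2.06 and by 2.84, and Asns, the asparagine synthetase, fell 2.59-fold in PQ and 4.51-fold in NAC. Slc7a5, a transporter of large neutral amino acids, fell by 2.09 and by 1.89. Cth, which makes cysteine from cystathionine, had 4.33 and 1.38 FPKM in control, 0.59 and 0.91 under PQ and 0.31 and 0.45 under NAC. It thus reached the filter of a mean of 1 FPKM only through the control libraries. Its falls of 1.95 in PQ and 2.94 in NAC, which are among the counts of this list, therefore support nothing. Control 1 stood above control 2 here, with summed FPKM of 2233 and 1531 for the list and CPM 2.06-fold higher for Trib3, 1.65-fold for Asns and 3.17-fold for Cth. Within the TRIZOL libraries PQ differed from control by -1.53 for Trib3, -0.89 for Asns, -0.60 for Cth, -0.12 for Sars and 0.10 for Nupr1, and within the NucleoSpin libraries by -2.41, -1.77, -2.93, -0.74 and -0.93. For Chac1, Trib3 and Asns PQ was higher than NAC, with log2 fold changes of 1.02, 0.78 and 0.80. Promoter windows were present for 13 of these 18 genes, and TGATGNAA was found in those of 8. Stretches of 30 bases around the match, in capitals, are shown for 3 of the 8, Asns, Trib3 and Chac1. Nupr1, also named above, carries a match too but is not shown. The stretches lie at chr6:7693214-7693243 on the minus strand for Asns, chr2:152344028-152344057 on the minus strand for Trib3 and chr2:119351038-119351067 on the plus strand for Chac1.
Asns: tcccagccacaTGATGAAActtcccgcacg
Trib3: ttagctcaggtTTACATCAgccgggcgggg
Chac1: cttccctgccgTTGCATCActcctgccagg

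Glycolysis, which supplies 3-phosphoglycerate, was lower in NAC. Of 11 genes, all tested, 11 fell in NAC (median log2 fold change -0.82) and 2 fell in PQ (median -0.09), with 0 higher in either, beside 18.7% and 19.2% of all genes changed in NAC and PQ, and 11 were higher in PQ than in NAC (median 0.64), as were 16.0% of all genes. Pfkp, a phosphofructokinase, had 62.0 and 63.4 FPKM in control, 62.2 and 66.8 under PQ and 26.6 and 31.2 under NAC. Only the NAC libraries of Pfkp stood apart. It fell by 1.16 in NAC (adjusted p = 2.1e-07), and its value in PQ was 0.01 (adjusted p = 0.94). All NAC libraries carry the TRIZOL label, and against control 2 alone Pfkp differed by -1.28 in NAC 1 and by -1.07 in NAC 2.

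**Figure D4:**
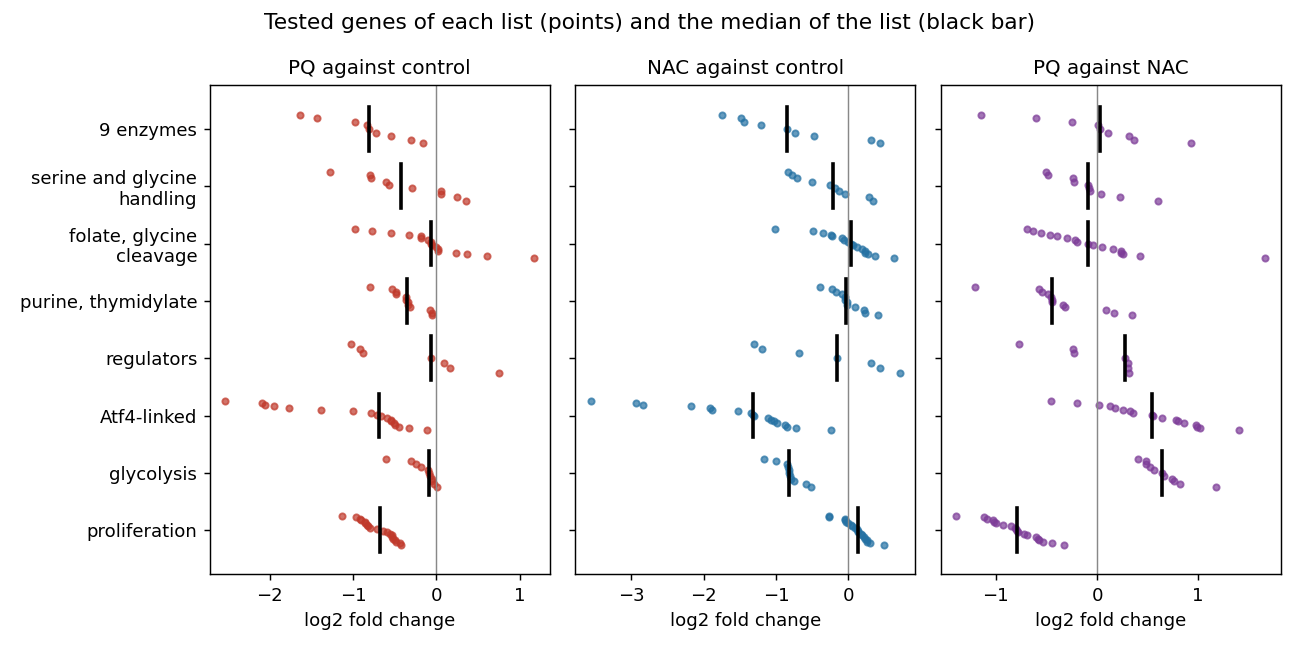
Log2 fold change of each tested gene (points) in the 9 enzymes and 7 lists of related genes, with a black bar at the median of each list, in the 3 comparisons. The proliferation list had a median of -0.68 in PQ and 0.13 in NAC, and the glycolysis list had -0.09 in PQ and -0.82 in NAC, while the 9 enzymes had -0.81 and -0.85.

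Marker genes were examined to check the labelled cell type, and the counts of those that changed stand beside 9.76% of all genes higher and 9.45% lower in PQ, and 9.01% higher and 9.64% lower in NAC. Of 10 neural stem/progenitor markers 9 were tested, all but Prom1, with Vim the most abundant (2171 and 2323 FPKM in the control libraries) and the summed FPKM was 3417 and 3476 in control libraries, 3738 and 3792 with PQ and 2703 and 2622 with NAC. Nes, an intermediate filament of neural progenitors, had 87.7 and 91.9 FPKM in control 1 and 2, 117 and 114 in PQ 1 and 2, and 76.7 and 76.6 in NAC 1 and 2. Of these 9, Nes rose and 3 genes fell in PQ, and Slc1a3 rose and 3 genes fell in NAC. The oligodendrocyte lineage list had Olig1 as its most abundant gene (320 and 414 FPKM in the control libraries), 4 of 8 genes tested, at most 3 counts of Sox10 in any library and none of Mog, and 0 changed in PQ and 3 rose in NAC. Its summed FPKM was 652 and 753 in control, 768 and 666 under PQ and 816 and 926 under NAC. Of 8 neuronal markers 1 was tested, Map2, which rose in NAC (log2 fold change 0.77) and made up most of a summed FPKM of 38.4 and 36.3 in control libraries, 34.1 and 35.2 with PQ and 65.5 and 59.0 with NAC. Tubb3, too low to be tested, had 41 and 23 counts in control, 13 and 8 under PQ and 6 and 8 under NAC. Rbfox3 was at 0, Stmn2 and Neurod1 had at most 3 counts, and Dcx reached 0.08 FPKM. The 7 astrocyte markers, with summed FPKM of 178 and 179 in control 1 and 2, 208 and 222 in PQ 1 and 2, and 210 and 209 in NAC 1 and 2, had 2 higher in PQ, Gja1 and Aldh1l1, and 4 higher and 1 lower in NAC, with Gja1 the most abundant and none at 0. Those higher in NAC were Aqp4 (log2 fold change 1.76), Gfap (1.23), Aldoc (1.09) and Slc1a2 (0.65), and Gja1 was the lower one (-0.43), with a median of 0.23 in PQ and 1.09 in NAC over the 7 markers. The part of these markers in the values of the enzymes was not tested. Microglial (1 of 7 tested), endothelial (0 of 5), fibroblast and pericyte (1 of 6) and ependymal (2 of 3) lists summed to at most 8.24 FPKM in any library, beside 414 to 829 FPKM for the 9 enzymes. Of their tested genes, P2ry12 rose in NAC (log2 fold change 1.18) and Col3a1 fell in PQ (-0.90).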

How the data were processed

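Each library's deposited table lists genes with an expected count, an estimate that need not be whole, and with FPKM as computed by the authors. The submitters' processing notes name TopHat2 2.0.11, Cufflinks 2.1.1 and mm9 for control 1 and PQ 1, and HISAT2 2.0.4, Bowtie2 2.2.5, RSEM and mm10 for the others, whereas the methods give TopHat, Cufflinks and an Illumina sequencer for all. All 6 tables have columns of the type RSEM writes, so which pipeline made those of control 1 and PQ 1 is not known. Whether strand was used in counting is not given in the sources used here. Between 78.6% and 79.1% of the counts in a library were whole, and of the 9 enzymes Phgdh alone had fractional counts, in 3 libraries. Genes left out of a table were taken as 0, and symbols were found for 99.7% of genes (RefSeq, GRCm38.p6).

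Expected counts were rounded and tested with edgeR 4.0.16 in R 4.3.3 (TMM, glmQLFit and glmQLFTest, all 6 libraries, no covariates) on 11717 genes whose FPKM averaged 1 or more, adjusting p by Benjamini-Hochberg over all of them with a threshold of 0.05. Standard errors came from the fold change and its F statistic. The alternatives used DESeq2's size factors, no filter, DESeq2 1.42.0, only the 4 libraries compared, the labelled protocol as a block, limma 3.58.1 on log2(FPKM + 1) or log2(FPKM + 0.1), and each library left out in turn. Values within a protocol were added after seeing the data. The members and lists were chosen with earlier results of these data known. From each list up to 4 called genes with the largest change in a comparison could be named, beside Atf4, Myc, Mthfd2l, Aldh1l1, Tyms, Slc25a32 and Sfxn1, and other genes were named after their values had been seen.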

Additional observations from a re-analysis of the deposited data

Results flagged for a closer look

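For Myc, PQ differed from control by a log2 value of 0.07 in the NucleoSpin libraries and by -0.18 in the TRIZOL libraries, 1 library against 1 in each. For Slc25a32, the mitochondrial folate carrier, the same differences were -0.43 and 0.03. Both genes drew attention because the sign turned between the labelled protocols, and the difference between protocols was not tested. The search covered the enzymes, a few genes always given and those with the largest changes in PQ. Over all lists of related genes 17 of 95 tested genes turned sign in this way, and 0 of them were called in PQ. The count of 17 leaves out Gpi1, whose difference was -0.09 in the TRIZOL libraries and rounded to 0.0 in the NucleoSpin libraries. None of the 9 enzymes changed sign between the protocols in PQ against control.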

How the results depend on the processing

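The 27 log2 fold changes of the enzymes were recomputed under 13 alternatives, 6 of which left out a library. Of the 351 values 324 kept their direction and side of the threshold, 8 lost a call, 11 gained one and 8 changed sign, of which 0 were called in either fit. These 8 were values of PQ against NAC close to 0: Psat1 (0.03) became -0.06 without PQ 2 and lay just under 0 without NAC 2 (from -0.06 to 0.12 when a library was left out), Mthfd2 (0.11) became -0.11 with the protocol block, and Shmt2 (0.01) became -0.08 with that block, -0.01 with limma at either pseudocount, -0.02 without PQ 2 and -0.01 without NAC 1. The cause was not tested. The number of enzymes called ranged from 6 to 8 in PQ, from 7 to 9 in NAC and from 3 to 6 in PQ against NAC when a library was left out (7, 8 and 4 with all libraries). Where a group keeps 1 library, that library is assumed to vary like the other groups. Over all genes, the count of 2250 in PQ became 866 without PQ 1, the 2186 in NAC became 1286 without NAC 1 and 1427 without NAC 2, and the 3708 between PQ and NAC became 2343 without PQ 1 and 2407 without NAC 1.

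The labels carry no replicate numbers, and the replicate block of labelled protocol left 7 enzymes called in PQ, 7 in NAC, where Shmt1 was lost (adjusted p = 0.072), and 4 in PQ against NAC, where Mthfd1l was lost (adjusted p = 0.053) and Phgdh gained (log2 fold change -0.35, adjusted p = 0.037). Over genes, deviations of control and PQ libraries of 1 protocol from their group means had a correlation of -0.1. Both NAC libraries share a protocol, so NAC against control within a protocol rests on control 2 alone.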
